A study of Homo sapiens with 4 samples.

Results

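The quantity described here is the density dependence of the bicarbonate difference in H9, a human embryonic stem cell line long in use. For each gene the bicarbonate difference (log2 intensity with added bicarbonate minus that in control medium) was taken once at high and once at low density, and the second was subtracted from the first. A positive value means that the bicarbonate difference was more upward at high density than at low density, and a negative value the reverse. It does not say at which density the level was higher. The members are the 8554 genes whose probe had a detection p-value under 0.01 on all 4 arrays, out of 20037 genes named on the array and 10457 detected on at least 1 array. Of the 8554 genes, 1738 had a second probe detected on all 4 arrays, and these served to see whether another probe of the same gene gave a like value.

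The series holds 4 samples, each measured on 1 Illumina expression array with no replicate. All came from H9 cells kept on Matrigel in E8, a defined medium changed daily, and all were collected on day 2. The high-density cultures were above 90% confluence and the low-density cultures below 70%, and each density was grown in normal E8 or in E8 with 20 mM of extra sodium bicarbonate. The labels name no genetic change and no second line or clone, so every value below belongs to a single line and to single cultures, and no p-value is given.

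Bicarbonate is the main pH buffer of culture medium. Pluripotent stem cells take up much glucose and release lactic acid, so a dense culture acidifies its medium faster than a sparse one, and medium acidosis at high density is the subject that the series title gives. TXNIP, an arrestin-family protein that binds thioredoxin and limits glucose uptake, is transcribed in response to sugar phosphates. CDKN1A encodes the cyclin-dependent kinase inhibitor p21, a p53 target that arrests the cell cycle. The ID genes encode inhibitors of basic helix-loop-helix transcription factors and are classical targets of BMP signals.

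The promoters of 5 genes on which the results turn are shown first, since each belongs to a gene past 2-fold described below and holds an element known for its pathway. They run from 250 bases before to 50 after the first annotated start of the gene, 5′ to 3′ on the gene's strand, and come from RefSeq on GRCh38.p14. For TXNIP (chr1:145996530-145996829, minus strand) capitals mark the repeated half-site of the carbohydrate response element, the site bound by MondoA and its partner MLX. For the skeletal muscle actin gene ACTA1 (chr1:229434045-229434344, minus strand) and the smooth muscle actin gene ACTG2 (chr2:73892758-73893057, plus strand) they mark the CArG box of serum response factor. For CHAC1 (chr15:40953221-40953520, plus strand), a glutathione-degrading enzyme induced by ATF4, they mark TTGCATCA, a composite site of ATF4 and C/EBP factors. For the mitophagy receptor gene BNIP3 (chr10:131981874-131982173, minus strand), a target of hypoxia-inducible factor, they mark CACGTG, which holds the factor's core ACGTG on both strands.
TXNIP: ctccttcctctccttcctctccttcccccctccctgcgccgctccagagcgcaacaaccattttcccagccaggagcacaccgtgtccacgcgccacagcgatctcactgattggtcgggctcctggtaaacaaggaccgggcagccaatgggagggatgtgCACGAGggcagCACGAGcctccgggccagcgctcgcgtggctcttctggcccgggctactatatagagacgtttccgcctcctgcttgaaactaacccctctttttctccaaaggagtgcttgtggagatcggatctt
ACTA1: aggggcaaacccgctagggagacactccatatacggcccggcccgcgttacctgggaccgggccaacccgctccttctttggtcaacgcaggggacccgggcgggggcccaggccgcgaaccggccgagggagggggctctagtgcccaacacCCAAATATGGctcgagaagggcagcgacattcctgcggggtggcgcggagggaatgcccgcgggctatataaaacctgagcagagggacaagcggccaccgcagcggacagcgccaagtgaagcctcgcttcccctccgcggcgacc
ACTG2: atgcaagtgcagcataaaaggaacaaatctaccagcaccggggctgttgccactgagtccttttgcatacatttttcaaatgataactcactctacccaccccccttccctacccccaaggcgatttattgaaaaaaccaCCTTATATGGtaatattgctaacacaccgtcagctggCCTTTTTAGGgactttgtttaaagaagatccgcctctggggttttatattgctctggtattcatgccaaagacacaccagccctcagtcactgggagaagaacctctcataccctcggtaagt
CHAC1: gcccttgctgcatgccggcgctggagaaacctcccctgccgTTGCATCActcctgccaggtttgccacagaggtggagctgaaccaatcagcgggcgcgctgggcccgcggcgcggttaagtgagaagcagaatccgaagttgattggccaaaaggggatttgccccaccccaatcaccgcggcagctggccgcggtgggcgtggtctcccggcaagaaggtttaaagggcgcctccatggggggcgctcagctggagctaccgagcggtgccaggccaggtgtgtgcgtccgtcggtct
BNIP3: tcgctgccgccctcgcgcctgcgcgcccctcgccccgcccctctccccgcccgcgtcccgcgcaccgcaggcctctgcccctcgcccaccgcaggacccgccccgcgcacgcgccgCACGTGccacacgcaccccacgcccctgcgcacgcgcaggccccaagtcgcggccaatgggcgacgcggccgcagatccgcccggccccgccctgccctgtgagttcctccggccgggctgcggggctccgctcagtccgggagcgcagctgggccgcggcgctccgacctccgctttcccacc

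These motifs were searched on both strands of 27305 promoter windows, 1 per gene symbol, of which 7063 belonged to measured genes. The carbohydrate response element, searched as a pair of CACGNG half-sites 5 bases apart and added after the TXNIP window had been seen, was in 0.184% of the measured genes' windows. The CArG box was in 1.15% of them, in 5 of the 168 windows of genes at least 2-fold lower and in 0 of the 126 windows of genes at least 2-fold higher. TTGCATCA was in 0.496%, CACGTG in 10.8% and its inner ACGTG in 27.8% of measured windows. CACGTG was in 13.5% of the windows of genes at least 2-fold higher and 8.33% of those lower, and ACGTG in 30.2% and 27.4%. The cyclic AMP element TGACGTCA was in 3.70% and the metal response cores TGCACNC and TGCGCNC in 10.9% and 32.1% of measured windows. The p53 consensus, searched with no mismatch and no spacer, was in 0 of the 7063 measured windows and in 5 of all 27305. A pattern this rare says little by its absence. A match is a stretch of letters and says nothing about binding in these cells.

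On the 4 arrays between 14128 and 15213 of 47293 probes were detected, the most at high density with bicarbonate. The median unnormalized intensity over all probes, detected or not, was lowest on that same array (117.4, against 153.5 to 166.6 on the others). Of 15 markers of pluripotent stem cells, 14 were detected on all 4 arrays, and UTF1 was not detected at low density with bicarbonate. Of the markers of other cells, 0 of 16 for trophoblast and amnion, 0 of 17 for blood and endothelium, 1 of 12 for definitive endoderm, 1 of 16 for mesoderm, 5 of 19 for neuroectoderm and 10 of 19 for fibroblasts were measured on all 4 arrays. The high-density bicarbonate array enters every value below, and the part of its lower median intensity in them was not tested. In these bulk samples fewer cells of a type and less RNA per cell cannot be told apart. The fibroblast list holds VIM, TAGLN and other genes that embryonic stem cells also express, and the brightest FN1 probe was not detected on any array.

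On these single arrays the bicarbonate difference was at least 2-fold apart between densities for a minority of genes. The difference of differences had a median of 0.002 and a standard deviation of 0.486 over the 8554 genes, and its quartiles were -0.31 and 0.307. Brightest and second probes differed in it with a standard deviation of 0.654 over 1738 genes, which gives 0.462 for 1 probe. At least 2-fold higher values were found for 165 genes (1.93%) and at least 2-fold lower values for 208 (2.43%). With the arrays set to equal medians in place of quantile normalization the split turned to 243 higher and 202 lower genes. Taken alone, the bicarbonate difference passed 2-fold upward in 45 genes (0.526%) and downward in 44 (0.514%) at high density, and in 5 (0.0585%) and 9 (0.105%) at low density. Values at the edge differed little from each other: HAS3 (1.003), GABRA5 (1.002) and RAPGEF6 (1.001) lay just inside and KPTN (0.994), PRRC2B (0.993) and FCHO1 (0.992) just outside on the upper side. On the lower side TMEM126B (-1.007), EFNA4 (-1.005) and ZMYM6 (-1.003) lay just inside and MSL3 (-0.998), HSPA1A (-0.997) and B9D2 (-0.996) just outside. With the genes in 4 equal groups by mean level, the share past 2-fold was 6.54%, 5.75%, 3.51% and 1.64% from the dimmest to the brightest.

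**Figure D1:**
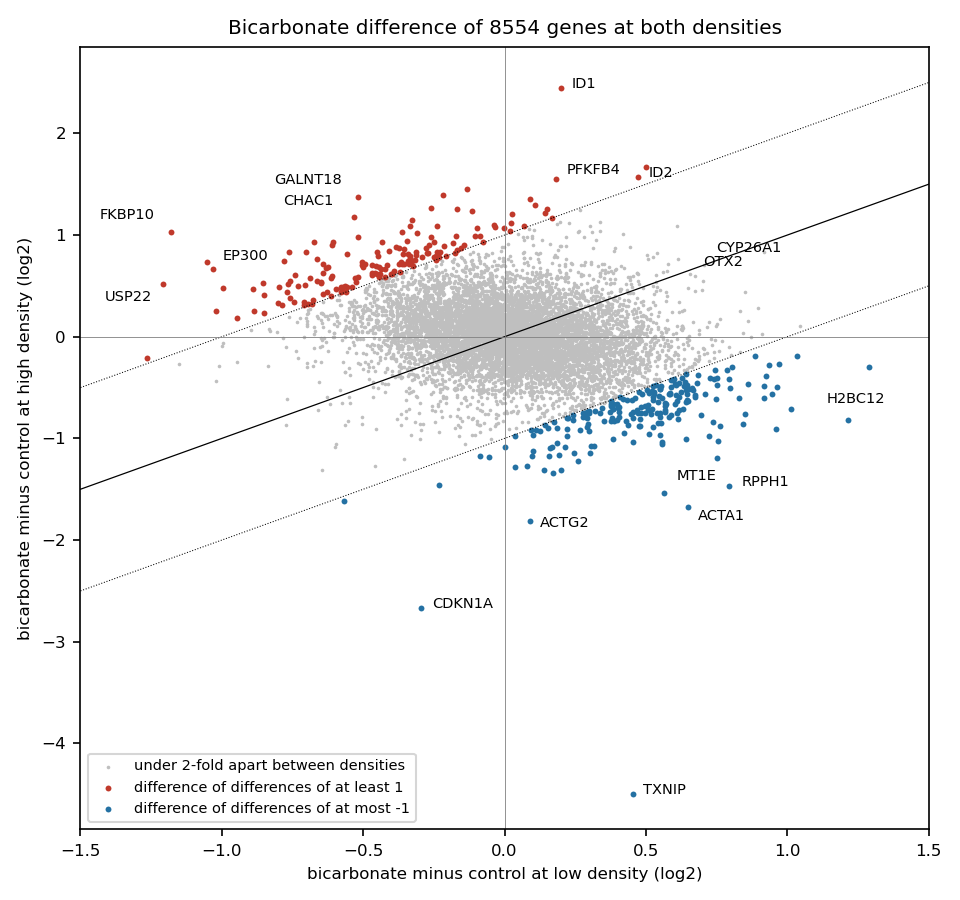
Each point is 1 of 8554 genes, with its bicarbonate difference at low density on the horizontal and at high density on the vertical axis (log2 intensity, 1 array per group). The solid line marks equal differences and the dotted lines a difference of differences of 1 and -1; 165 red points lie above the upper and 208 blue points below the lower dotted line, with TXNIP (-4.94) and ID1 (2.24) at the ends.

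The larger number of these genes had their bicarbonate difference at high density. Of the 373 genes past 2-fold, 224 (60.1%) had a bicarbonate difference of at least 1.5-fold at high density and a smaller one at low density, 77 (20.6%) had it at low density and not at high, 45 (12.1%) had it at both in opposite directions, and 27 (7.24%) at neither. The background for a 1.5-fold bicarbonate difference over all 8554 genes was 4.51% upward and 4.14% downward at high density, and 1.98% and 1.52% at low density. Seen from the other side, 159 genes had a density difference of at least 1.5-fold in control medium and less with bicarbonate, 143 had one with bicarbonate and less in control medium, 27 had opposite ones and 28 had like ones of unequal size. Background shares for a 1.5-fold density difference were 11.6% higher and 12.3% lower in control medium and 11.8% and 11.7% with bicarbonate. About as many genes passed 2-fold between densities in either medium: those higher in the dense culture numbered 298 in control medium (3.48%) and 300 with bicarbonate (3.51%), of which 117 were shared, 39.3% of the former and 39.0% of the latter. Those lower numbered 252 (2.95%) and 240 (2.81%), and 82 of them were shared, 32.5% and 34.2%.

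A single array could be picked out for some genes. Where the difference of differences was at least 3 times the range of the other 3 arrays, 78 of the 373 genes had 1 array standing apart, 41 of them the high-density control, 26 the high-density bicarbonate array, 5 the low-density control and 6 the low-density bicarbonate array. With a limit of 2 times, which also admits genes with differences of like size and opposite sign, these counts were 305, 116, 97, 46 and 46.

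Second probes carried part of the pattern. Of 71 genes past 2-fold with a second probe, 55 (77.5%, exact 95% binomial interval over genes 66.0 to 86.5) had the same sign on it, 29 (40.8%, 29.3 to 53.2) were at least 1.5-fold in that direction and 12 (16.9%) at least 2-fold. Among 1394 genes under 1.5-fold on the brightest probe, 53.9% of the second probes had the same sign and 16.7% passed 1.5-fold with it. The median size of the 71 genes was 1.18 on the brightest probe and 0.32 in the same direction on the second. These intervals cover counting error over genes only, since the RNA and the arrays behind both probes are the same. Over the 1738 genes the difference of differences of both probes had a Pearson correlation of 0.24 across genes, which are not independent replicates.

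**Figure D2:**
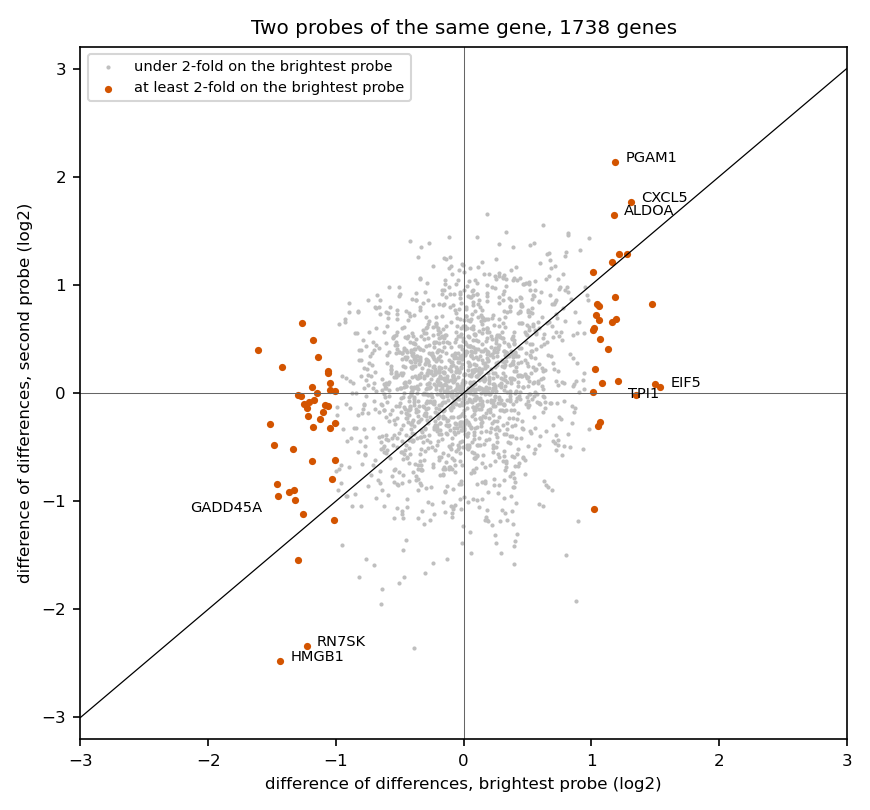
Difference of differences on the brightest probe (horizontal) and on the second probe (vertical) of 1738 genes, in log2 units, with a line of equality. Of the 71 orange genes past 2-fold on the brightest probe, 55 lie on the same side of 0 on the second, among them PGAM1 (2.14), HMGB1 (-2.48) and RN7SK (-2.34), while EIF5 (0.06) lies near 0.

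Across genes, the bicarbonate differences at high and low density, which share no array, were negatively correlated on the same probe (Pearson r = -0.24, Spearman rho = -0.25, 8554 genes, described without a test). In the 1738 genes with a second probe the same-probe correlation was -0.29 on the brightest and -0.34 on the second probe. It was -0.02 and 0.02 when the high-density difference came from one probe of the gene and the low-density difference from the other. The negative relation across all genes was thus present within a probe and near 0 between probes of a gene. With the authors' log2 values the same-probe value was -0.24 and the cross-probe values were -0.02 and 0.02.

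TXNIP stood lowest of all genes. Its log2 intensity in dense culture was 10.98 without and 6.48 with bicarbonate, and in sparse culture 7.52 and 7.97. It was thus high on the high-density control array and lowest with bicarbonate at the same density, below both low-density arrays. The bicarbonate difference was -4.49 at high density and 0.45 at low density, a difference of differences of -4.94 (30.8-fold). The density difference, 3.46 in control medium, was -1.48 with bicarbonate. TXNIP had 1 measured probe. The related arrestin gene ARRDC2 (-0.74) and the repressor gene HBP1 (-0.48, second probe 0.19) had smaller negative values, and MLX, the partner of MondoA, had 0.86. The 4 measured members of this family had a median of -0.61 with 1 at least 1.5-fold higher and 2 lower, where 10.4% and 10.7% of all genes passed these limits. These shares are the background for the member counts of every list below.

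CDKN1A stood second lowest of all genes, and further targets of p53 were on the lower side. CDKN1A stood at 12.30 and 9.63 at high density without and with bicarbonate, and at 8.02 and 7.73 at low density. Both high-density values lay above both low-density values, so the gap between densities narrowed from 4.28 to 1.91 without closing. Its difference of differences was -2.38 (5.19-fold). GADD45A, a growth arrest and DNA damage gene, read 9.27 and 7.96 at high density and 7.41 and 7.55 at low density, which gives -1.45. It was highest on the high-density control array, with the other 3 close together, and its second probe gave -0.95. PHLDA3, a repressor of the kinase AKT, had -1.44, TRIAP1, an inhibitor of apoptosis, -1.29, and RRM2B, the p53-inducible ribonucleotide reductase subunit, -1.05. In the list of p53 targets 9 of 18 measured genes lay at least 1.5-fold below and 2 that far above, around a median of -0.58. Of all genes 10.7% and 10.4% passed these limits. The 2 higher members were the nucleotide excision repair gene XPC (0.63) and the cell death gene BAX (0.61). The 5 second probes in the list had a median of 0.06, from CCNG1 (-1.81) to AEN (0.49), so the shift of the list was not seen in their median. GDF15, another p53 target, was outside the rule because it was not detected on either low-density array, and at high density it stood at 11.28 in control medium and 9.37 with bicarbonate. Other p53 targets outside the rule differed at high density: MDM2 was lower with bicarbonate (7.18 and 6.42) and DDB2 was not (8.64 and 8.82).

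Metallothioneins, small proteins that bind zinc and copper, had bicarbonate differences of opposite sign at the 2 densities in 4 of 5 measured members of their list, where 58.9% of all genes had them. MT1E read 9.87 and 8.34 at high density without and with bicarbonate and 6.76 and 7.32 at low density. MT1G read 10.57 and 9.38 against 7.97 and 8.72, and MT1F 9.24 and 8.48 against 7.52 and 8.37. All 3 were highest in the high-density control and lowest in the low-density control, and their density differences of 3.11, 2.598 and 1.73 in control medium were 1.02, 0.66 and 0.12 with bicarbonate. The differences of differences were -2.10, -1.94 and -1.61. MT1X had -0.44 and the zinc exporter SLC30A1 0.56, with 0.007 on its second probe. Over these 5 members the median was -1.61, with 3 at least 1.5-fold lower and 0 higher, against 10.7% and 10.4% of all genes. MT1H was detected at high density alone and MT2A was not detected in the low-density control, so both stayed outside the rule. Probes of this family are alike enough to bind each other's transcripts, so the members are not independent readings.

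**Figure D3:**
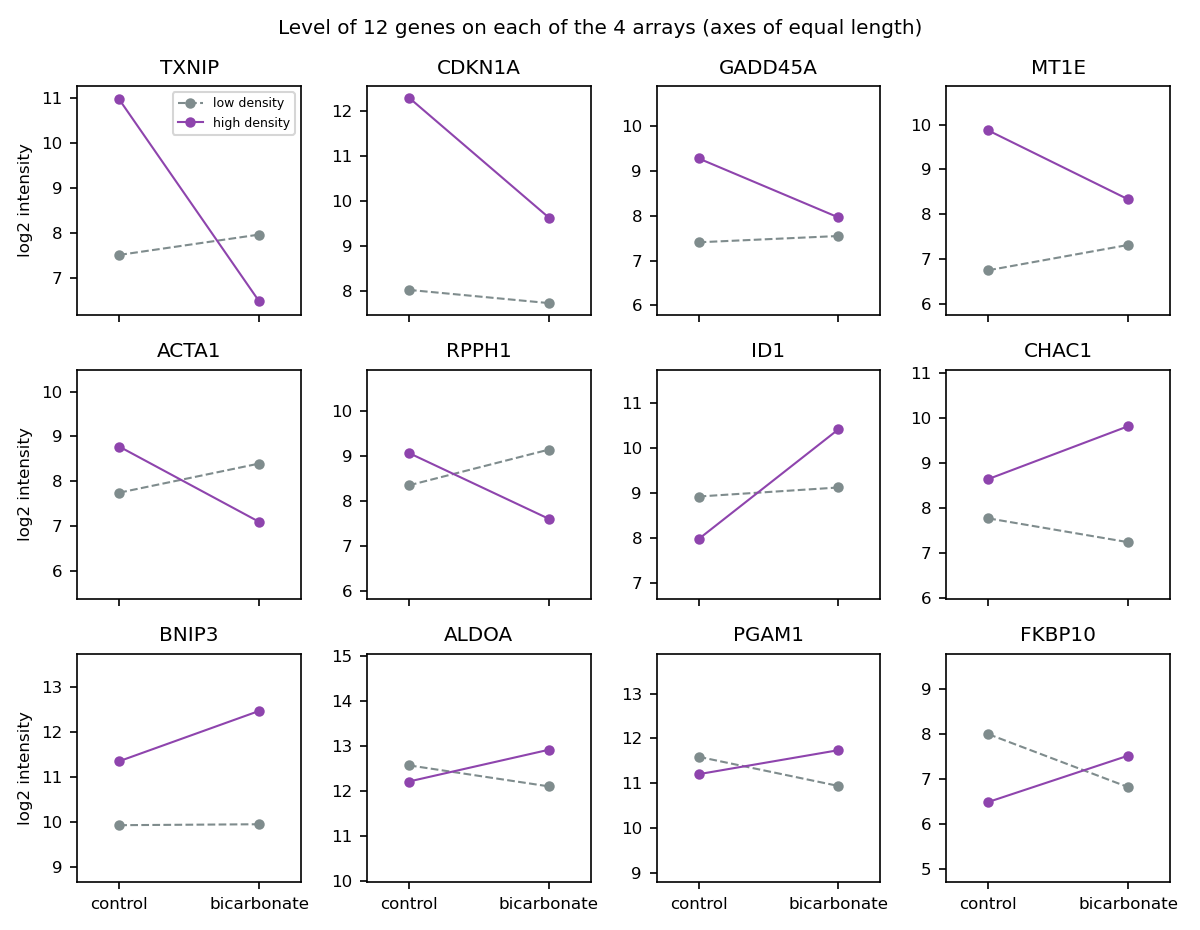
Log2 intensity of 12 genes on the 4 arrays, with control and bicarbonate on the horizontal axis and 1 line per density (1 array per point, vertical axes of equal length). The high-density line falls steeply for TXNIP and CDKN1A and climbs for ID1, while the lines also cross for ACTA1, RPPH1, ALDOA, PGAM1 and FKBP10.

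The muscle-type actins ACTA1 and ACTG2 were lowest on the high-density bicarbonate array. ACTA1 read 8.77 and 7.10 at high density without and with bicarbonate and 7.75 and 8.39 at low density, so that the order of the densities turned. ACTG2 read 8.14 and 6.33 against 7.95 and 8.04, and was set apart on the high-density bicarbonate array alone. Their differences of differences were -2.32 and -1.90. TAGLN, an actin-binding protein of smooth muscle, followed with -1.32 (-0.99 on its second probe), CALD1 (caldesmon) with -0.91 (-0.95) and the cardiac actin ACTC1 with -0.87. The smooth muscle actin ACTA2 and the calponin CNN1 were outside the rule. ACTA2 read 8.26 and 7.66 at high density and 6.61 in the low-density control, and was not detected at low density with bicarbonate. CNN1 was detected only at high density with bicarbonate (6.87). The cytoplasmic actin ACTB had 0.22 and 0.36 on its 2 probes, and ACTG1 had -0.11 on its brightest and 1.44 on its second. Of 17 measured genes in the actin and serum response factor list 5 lay at least 1.5-fold below and 2 above, the latter being TAGLN2 (0.97, second probe 0.86) and TPM4 (0.70). The shares over all genes were 10.7% below and 10.4% above. The list median was -0.08, and 0.27 over 12 second probes. Actin coding sequences are so similar that the probes may share transcripts.

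Some structural RNAs that lack a poly(A) tail stood low as well. How well the labelling reads such RNAs was not tested. RPPH1, the RNA of RNase P, read 9.06 and 7.599 at high density without and with bicarbonate and 8.34 and 9.14 at low density, a difference of differences of -2.26. RN7SK, which restrains the elongation factor P-TEFb, read 10.54 and 9.08 against 8.38 and 8.15 (-1.23), with -2.34 on its second probe. The first crossed between densities and the second stood higher at high density in both media. Of the 5 measured members of their list RNY3 (-0.61) was the third past 1.5-fold on the lower side, while RNY1 (-0.10) and RN7SL1 (0.08) were not. Of 313 small nuclear and nucleolar RNAs on the array 37 were measured, with a median of -0.45. Among these 37, 13 were at least 1.5-fold lower and 2 higher, RNU4-1 (1.06) and SNORA7B (1.003). The lowest included SNORA25 (-1.46), SNORA61 (-1.38), the spliceosomal RNU6-1 (-1.36) and SNORA18 (-1.35). Over all genes, 10.7% were at least 1.5-fold lower and 10.4% higher. Heat shock genes leaned to the lower side too, with 6 of 18 lower, 0 higher and a median of -0.40, against -0.12 over 7 second probes. They were led by HSPA1A (-0.997), whose copy HSPA1B (-0.82) is nearly identical, and by the co-chaperone CHORDC1 (-0.95). DNAJA1 (-0.84) and HSP90AA1 (-0.82, second probe -0.55) were also among the 6, as was HSPA2 (-0.92), whose second probe gave -0.10.

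Other genes on the lower side were supported by their second probe. HMGB1, an abundant chromatin protein, read 8.995 and 8.39 at high density and 8.74 and 9.57 at low density (-1.44), and its second probe gave -2.48. The highest of its 4 values was that at low density with bicarbonate. BIRC5, the mitotic and anti-apoptotic protein survivin, had -1.37 and -0.92 on its 2 probes, and PRPS2, which makes the sugar phosphate for nucleotide synthesis, -1.30 and -1.55. SAFB2, a scaffold attachment factor, had -1.26 and -1.12, and ZNF207, which binds kinetochores, -1.02 and -1.17. SPAST (spastin, which severs microtubules), TMEM178A, PKIA (an inhibitor of protein kinase A), UFM1 (a ubiquitin-like modifier) and EIF4E (the cap-binding factor of translation) ranged from -1.46 to -1.01 on the brightest and from -0.90 to -0.62 on the second probe. In all, 13 genes on the lower side met this condition.

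ID1 stood highest of all genes. Its log2 intensity was 7.97 and 10.42 at high density without and with bicarbonate, and 8.92 and 9.12 at low density. The high-density control was the lowest and the high-density bicarbonate array the highest of the 4, so the density difference turned from -0.95 to 1.29. Its difference of differences was 2.24 (4.73-fold), and it had 1 measured probe. ID3 read 10.64 and 11.54 against 11.22 and 10.95 (1.17) and turned likewise. ID2 read 8.08 and 9.65 against 7.25 and 7.72 (1.10), being higher at high density in both media and higher with bicarbonate at both densities. A dimmer ID2 probe, detected on 3 arrays, was lower with bicarbonate at low density (6.69 and 6.28) and gave 2.15. The other measured BMP targets were the inhibitory SMAD7 (0.44) and the pseudoreceptor BAMBI (-0.28), so 3 of 5 were at least 1.5-fold higher, 0 lower, and the median was 1.10. Of all genes 10.4% were that much higher and 10.7% lower. SMAD6, another inhibitory SMAD, was outside the rule because it was not detected at low density with bicarbonate, and it read 7.59 and 6.92 at high density and 6.42 in the low-density control.

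Glycolytic enzymes lay on the upper side, with median bicarbonate differences of opposite sign at the 2 densities. The 24 measured genes had a median of 0.42, with 8 at least 1.5-fold higher and 0 lower, against 10.4% and 10.7% of all genes. The median bicarbonate differences were 0.36 at high density and -0.10 at low density. ALDOA (aldolase) read 12.21 and 12.91 at high density without and with bicarbonate and 12.57 and 12.10 at low density. PGAM1 (phosphoglycerate mutase) read 11.20 and 11.74 against 11.59 and 10.94. Without bicarbonate the dense culture had the lower level of both, and with it the higher, with differences of differences of 1.18 and 1.18, and 1.65 and 2.14 on their second probes. PFKFB4, which sets the level of fructose 2,6-bisphosphate, stood at 1.37, TPI1 (triose phosphate isomerase) at 1.21 with 0.11 on its second probe, the enolase ENO2 at 1.02, the pyruvate kinase PKM at 0.95 with 0.98, GPI (glucose phosphate isomerase) at 0.84 and the hexokinase HK2 at 0.64 with -0.13. The second probes of 11 glycolysis genes had a median of 0.75.

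Among hypoxia targets BNIP3 and DDIT4 had a wider gap between densities with bicarbonate. BNIP3 read 11.35 and 12.46 at high density and 9.92 and 9.94 at low density, and DDIT4, an inhibitor of mTORC1, read 11.09 and 11.93 against 9.40 and 8.996. Both were higher at high density in control medium already, by 1.43 and 1.69, and by 2.52 and 2.94 with bicarbonate, which gives 1.10 and 1.25. STC2 (stanniocalcin 2) had 1.08 and ADM (adrenomedullin) 0.79. FAM162A went the other way (-0.89), through a bicarbonate difference of 0.91 at low density. Of 15 measured hypoxia targets 6 were at least 1.5-fold higher and 1 lower (10.4% and 10.7% of all genes), with a median of 0.48. Hypoxia and glycolysis lists share SLC2A1, SLC2A3, PFKFB3 and PFKFB4, and the 2 second probes of hypoxia genes (median -0.17) were PFKFB3 (0.25) and BNIP3L (-0.59).

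In the ATF4 list, of amino acid and stress response genes, CHAC1 led. It read 8.64 and 9.82 at high density without and with bicarbonate and 7.77 and 7.24 at low density, higher at high density in both media, with a difference of differences of 1.71. VLDLR, a lipoprotein receptor, had 1.21, with bicarbonate differences of 0.55 at high and -0.66 at low density. XPOT, the tRNA exporter, had 0.91, with -0.09 and -0.999. Of 29 measured members 6 were at least 1.5-fold higher and 2 lower, against 10.4% and 10.7% of all genes. The list median was 0.32, and 1 of the 2 lower members was CDKN1A. The factor ATF4 itself had -0.46 (0.40 on its second probe), and the 5 second probes of the list had a median of -0.21.

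Neural and matrix genes included further high values. The neural transcription factor POU3F1 read 9.04 and 10.02 at high density and 9.23 and 9.05 at low density (1.16), with 1.22 on its second probe. SOX21, another factor of neural progenitors, had 1.07, the neural filament NES 0.68 and SOX3 -0.63, so 3 of 5 measured neuroectoderm genes lay at least 1.5-fold above and 1 below. The collagen genes COL1A2 (1.19, second probe 0.69), COL6A1 (1.02) and COL1A1 (0.89) stood on the same side, as did the WNT receptor FZD7 (1.01, second probe 0.58), whereas the receptor FZD8 stood at -1.01. Of the 10 measured fibroblast markers, which include these collagens and TAGLN, 4 were at least 1.5-fold higher and 1 lower, with a median of 0.16, and a part of other cells in these values was not tested. Beside the neuroectoderm and fibroblast counts, 10.4% of all genes were that much higher and 10.7% lower. NPTX1, a neuronal pentraxin, was outside the rule because it was not detected at low density with bicarbonate. It read 7.45 and 9.28 at high density and 7.67 in the low-density control.

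**Figure D4:**
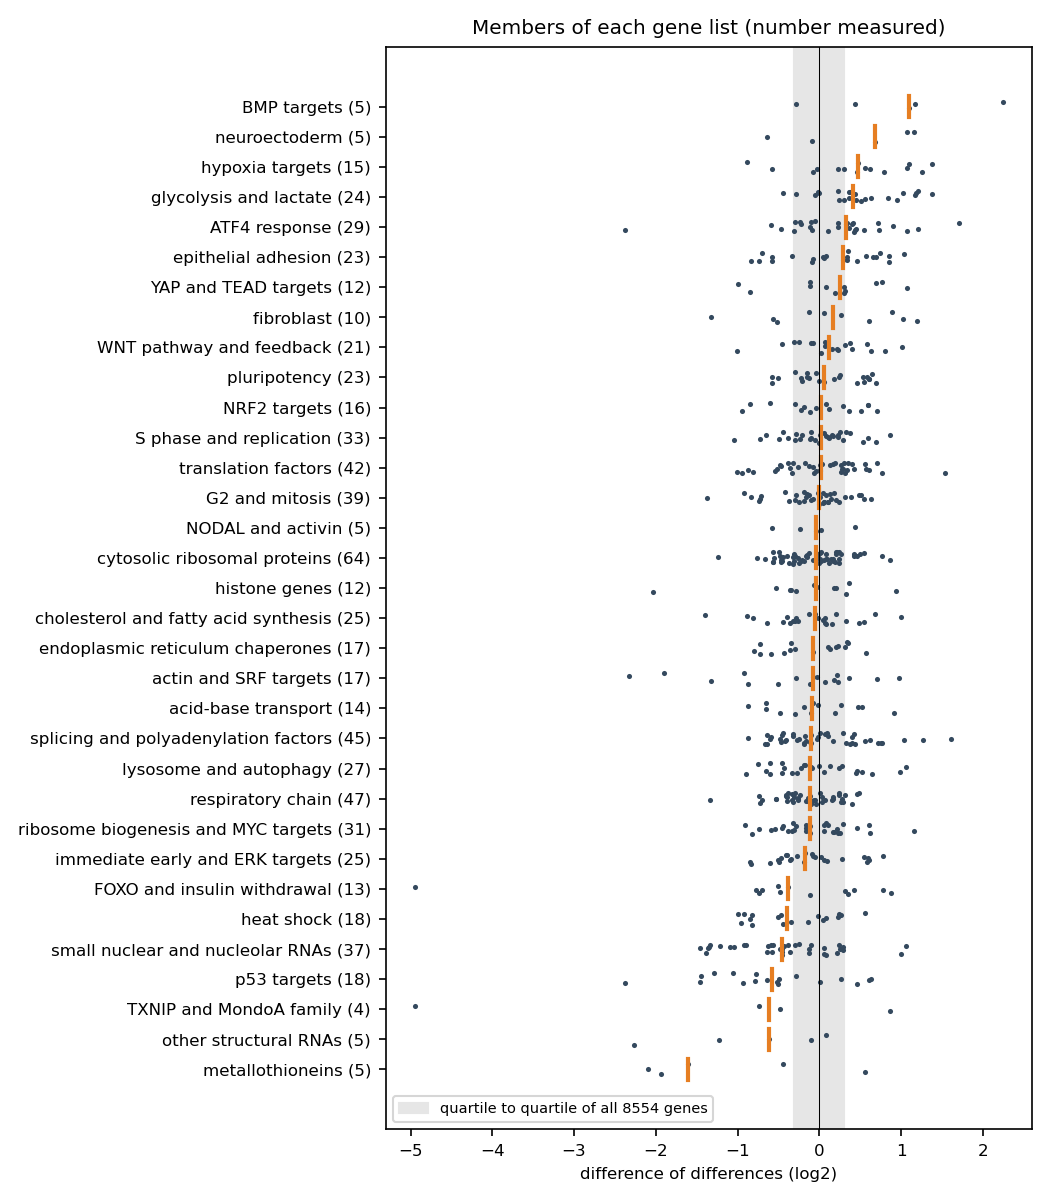
Difference of differences (log2) of the measured members of 33 gene lists with at least 3 measured genes, each dot 1 gene, with the number measured after the list name and the median as an orange bar. The grey band runs between the quartiles of all 8554 genes (-0.31 and 0.307); medians of metallothioneins (-1.61) and BMP targets (1.10) lie farthest from it.

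For 77 of the 373 genes the bicarbonate difference lay at low density. TRA2A, a splicing activator, read 8.66 and 8.91 at high density and 9.41 and 8.39 at low density, so its bicarbonate difference was 0.25 and -1.02. USP22, a deubiquitinase of the SAGA complex, read 7.80 and 8.32 against 8.75 and 7.54. The low-density control was the highest of the 4 arrays for both, with differences of differences of 1.27 and 1.72. ATP2B4, a plasma membrane calcium pump, had 1.47 with 0.82 on its second probe, and SRPK2, a kinase of splicing factors, 1.22 with 1.28. The second probe of SRPK2 placed it at high density, with 0.76 there and -0.53 at low density. The splicing regulator ESRP1 of epithelial cells had 1.04.

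In 45 of all 8554 genes the bicarbonate differences were at least 1.5-fold in opposite directions. Over all genes 4.51% passed this limit upward and 4.14% downward at high density, and 1.98% and 1.52% at low density. In 36 of the 45 genes the order of the densities also differed between media. The second count follows in large part from the first, since opposite differences of this size shift the density difference by more than 2-fold. Its share over all genes was not counted. Across genes, the negative relation of the 2 differences was present within a probe and all but absent between probes, as given above. Probes of a gene shared little of the low-density difference. FKBP10, a collagen chaperone, read 6.49 and 7.53 at high density and 8.005 and 6.83 at low density, a difference of differences of 2.21. EP300, a histone acetyltransferase, read 8.66 and 9.33 against 9.39 and 8.36 (1.70). In both, the densities swapped order between media. Of the 16 such genes on the upper side, LOC100190986 (1.78), the synaptotagmin SYT6 (1.61), the chromatin protein KMT2E (1.59) and the homeobox factor HMX2 (1.54) were among the 6 largest. The chemokine CXCL5 (1.31) was supported by its second probe (1.76), whereas the initiation factor EIF5 had 1.54 on its brightest and 0.06 on its second probe and stood lower at high density in both media. Of the 29 genes on the lower side, H2BC12, a histone H2B gene, read 8.26 and 7.44 against 8.63 and 9.84 (-2.03), lower at high density in both media. CCAR1, a transcriptional coactivator, had -1.86, GLIPR1L1 -1.78, the actin capping subunit CAPZA1 -1.73 and RANGRF, a regulator of the RAN GTPase, -1.70.

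The remaining genes highest in rank or supported by a second probe were spread over functions. GALNT18, a glycosyltransferase of protein O-glycosylation, read 6.73 and 8.10 at high density and 7.11 and 6.59 at low density (1.90). PCF11, a factor of transcript cleavage and polyadenylation, read 6.71 and 8.10 against 8.61 and 8.39 (1.61). Both were lower at high density than at low density in control medium (-0.38 for GALNT18 and -1.90 for PCF11), and FAM124A (1.58) came close behind. Second probes gave a like value for the chromatin reader ZMYND8 (1.28 and 1.28), for SLC22A23 (1.18 and 0.89), for the ribosome biogenesis factor UTP14A (1.16 and 0.65) and for the lysosomal glucosidase GAA (1.06 and 0.80). The nucleoporins NUP42 (1.06 and 0.67) and NUP35 (1.04 and 0.82), the tryptophan-degrading enzyme IDO1 (1.03 and 0.72) and the TFIID subunit TAF6 (1.02 and 0.60) completed the 15 highest of the 16 genes so supported on the upper side.

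Some genes had bicarbonate differences in the same direction at both densities. Of 8554 genes, 6 passed 1.5-fold upward at both densities and 8 passed it downward at both. The shares passing it were 4.51% at high and 1.98% at low density upward, and 4.14% and 1.52% downward. Counts of about this size would be found with these shares if the 2 differences were unrelated. OTX2, a factor of the primed pluripotent state and anterior neural fate, read 8.16 and 8.78 at high density without and with bicarbonate and 9.28 and 9.94 at low density. It was higher with bicarbonate by 0.61 and 0.66, and its density difference was about the same in both media (-1.12 and -1.16). CYP26A1, which degrades retinoic acid, was higher by 0.71 and 0.70, ZNF85 by 0.83 and 0.92, PIGQ of GPI anchor synthesis by 0.76 and 0.61, and RAPGEF5 by 1.09 and 0.61. On the lower side the RNA helicase DDX17 stood at -1.31 and -0.65, which differ by more than 1.5-fold (-0.66), SNORA73A at -0.87 and -0.77, FAM72B, which has near-identical copies, at -0.72 and -0.66, OR2A9P at -0.66 and -0.62, and the antiproliferative TOB1 at -0.62 and -0.77.

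The 23 measured pluripotency genes had a median difference of differences of 0.06, with 5 at least 1.5-fold higher and 0 lower. This split depends on the limit, since POU5F1 (0.587) just passed it and the lowest member (-0.581) fell just short of it. Over 7 second probes the median was 0.39. POU5F1 read 11.20 and 11.29 at high density and 11.55 and 11.05 at low density, a difference of differences of 0.59. SOX2 (0.001, but 0.67 on its second probe) and NANOG (-0.22) were closer to 0, and CD9 (0.70, but -0.44 on its second probe), USP44 (0.64, second probe 1.06), ZIC2 (0.61) and VRTN (0.60) were the most different. Lists of S phase (median 0.02), G2 and mitosis (-0.002), translation factors (0.02), cytosolic ribosomal proteins (-0.04), cholesterol and fatty acid synthesis (-0.05), endoplasmic reticulum chaperones (-0.07), histones (-0.05) and NRF2 targets (0.02) had medians between the quartiles of all genes, as did acid-base transport (-0.09) and the immediate early and ERK targets (-0.18). On second probes the median was 0.35 over 10 genes for S phase and 0.79 over 7 for the immediate early list, both outside the quartiles. In the acid-base list 3 of 14 genes were lower and 1 higher, the bicarbonate transporter SLC4A7 at -0.88 and the membrane carbonic anhydrase CA4 at 0.92 being the most different. A dimmer SLC4A7 probe, detected on 3 arrays, had the opposite sign (0.76). The list of FOXO targets lay outside, with a median of -0.39, 4 of 13 lower and 2 higher, and its lowest member was TXNIP.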

How the data were processed

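Per the labels' protocols, total RNA was turned into biotin-labelled cRNA for Illumina BeadChips. The deposited unnormalized table gives 1 intensity per probe and array with a detection p-value, whose steps fit 770 negative controls. A second deposited table holds the authors' log2 values for these arrays, whose normalization is not given in the sources used here. The groups come from the sample titles.

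Background correction and quantile normalization used limma 3.58.1 under R 4.3.3 (function neqc, offset 16, negative controls inferred from the detection p-values), which removes changes common to all genes. The rest was done in Python 3.11.15 (pandas 2.3.3, numpy 2.4.6, matplotlib 3.10.9, scipy 1.17.1). Of 47293 probes, 30098 had 1 gene symbol in the platform annotation, 8 several and 17187 none; 30059 matched the current gene table by gene ID. A gene was read on its brightest probe among those detected on at least 1 array and kept where that probe was detected on all 4. A second probe is the next brightest detected on all 4.

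No test was run, as each group holds 1 array, and the number of arrays limits the precision. The fold limits were 2 for genes and 1.5 for members of 37 gene lists from textbook knowledge. Members, lists and limits were chosen with earlier results of these data known. Named genes are the 12 highest and 12 lowest, the 15 highest and lowest supported by a second probe (same sign, at least 1.5-fold), the 6 largest per direction among genes with opposite bicarbonate differences, the 5 per direction with the largest differences shared by both densities and the 4 most different members of each list; others named here were chosen after their values were seen. The steps were also run on simulated data with planted differences, with a noise that was set and not estimated from replicates. That run says nothing about the precision of the values here. Alternatives were no background correction, the authors' log2 values, equal medians, an offset of 50, a detection p-value under 0.05, a mean log2 intensity of at least 8, the mean of all probes, the brightest probe detected on all 4 arrays and the second probe.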

Additional observations from a re-analysis of the deposited data

Results flagged for a closer look

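For 19 named genes the bicarbonate differences were at least 1.5-fold at both densities and ran in opposite directions. The difference between the densities was not tested, since each group holds 1 array. Lower in the difference of differences were ACTA1 (-2.32), RPPH1 (-2.26), H2BC12 (-2.03), MT1G (-1.94), CCAR1 (-1.86), GLIPR1L1 (-1.78), CAPZA1 (-1.73), RANGRF (-1.70), MT1F (-1.61), HMGB1 (-1.44) and UQCRH (-1.34), the last a subunit of respiratory complex III with -0.52 on its second probe. Higher were FKBP10 (2.21), LOC100190986 (1.78), EP300 (1.70), SYT6 (1.61), KMT2E (1.59), HMX2 (1.54), EIF5 (1.54) and CXCL5 (1.31).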

How the results depend on the processing

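No array could be left out, because each of the 4 enters every difference of differences. No paired analysis was possible because each group has 1 sample. The counts of genes past 2-fold depended on the processing. The 165 higher and 208 lower genes became 38 and 61 with no background correction, 93 and 138 with an offset of 50, 102 and 119 with a mean log2 intensity of at least 8, 108 and 159 with the authors' log2 values, 277 and 303 with a detection p-value under 0.05, and 243 and 202 with arrays set to equal medians, of which 147 and 148 were shared with the main counts. The 305 genes with 1 array standing apart became 82, 192, 173 and 482 with no background correction, the offset of 50, the intensity limit and the looser detection limit, and 78 with the stricter limit of 3 times, which was chosen after seeing the data. The share of second probes with the same sign fell to 62.5% with the looser detection limit and lay between 69.9% and 84.6% otherwise. Of the 80 named genes past 2-fold, 43 stayed past it with no background correction, 64 with the offset of 50, 65 with the authors' values, 66 with the mean of all probes, 68 with equal medians and 11 of 32 on second probes. Their directions did not turn under these, but they were chosen as extremes of the same arrays. For genes named because their second probe had the same sign, the direction on second probes was also fixed in advance. Of all 71 genes past 2-fold with a second probe, 55 had the same sign on it. On second probes the medians of p53 targets (0.06) and of the ATF4 response (-0.21) took the opposite sign, each over 5 genes, as did those of 9 other lists among the 31 with a second probe, among them immediate early and ERK targets (0.79 over 7), actin targets (0.27 over 12), ribosome biogenesis (0.23 over 13), cholesterol synthesis (0.14 over 9) and hypoxia (-0.17 over 2); the cause was not tested. Dim probes limit the counts, as 6.54% of the dimmest of the 4 groups of genes by level passed 2-fold.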

Other observations

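Of the probes without a gene name, 2388 were detected on all 4 arrays, and 79 of them were at least 2-fold higher and 120 at least 2-fold lower in the difference of differences (8.33% together). Their values ran from -2.18 to 2.88.

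A further 1903 genes were detected on 1 to 3 arrays on their brightest probe and have no difference of differences here. Of these, 290 were detected on both high-density arrays alone and 163 on both low-density arrays alone. On single arrays, 279 were detected only at high density with bicarbonate, 140 only in the high-density control, 141 only in the low-density control and 102 only at low density with bicarbonate. The endoderm factor FOXA2 was one of the 163, at 9.22 in the low-density control and 10.15 with bicarbonate.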
